A study of Mus musculus with 4 samples.

Results

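The cell cycle and proliferation module is a list of 40 genes, of 32285 in the deposited tables, that a dividing cell transcribes while it copies its DNA and then separates it. The list was fixed by gene symbol, and a cell was counted as cycling when its raw counts summed over the 40 genes reached 5. In it, 15 members belong to S phase, when DNA is replicated, and 25 to G2 and mitosis, when chromosomes condense, line up and part. By this count 10733 of 39550 cells kept for analysis were cycling, which was 2924 of 10020, 3859 of 11824, 2153 of 10167 and 1797 of 7539 in samples 1 to 4.

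The cells were leukocytes of the colonic lamina propria, enriched with magnetic beads for CD45, the surface protein shared by immune cells, from mice whose drinking water held 2% dextran sulfate sodium (DSS). This polymer damages the colonic epithelium and gives an acute colitis; the DSS was given for 7 days, tissue was taken at day 8, and cells of 3 mice were mixed in each of the 4 samples. The labels give an age of 10 weeks and the study's text 8 weeks. The study compared AhR-/- mice, which lack the aryl hydrocarbon receptor throughout the body, with AhR+/+ littermates, but the labels give only a number and the DSS treatment, so no sample has a genotype here, every sample is reported on its own and no p-value is given. With no untreated sample, no value can be set against an uninjured colon.

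In the textbook cycle, cyclin D with CDK4 or CDK6 starts the release of E2F factors from the pocket proteins, and E2F then turns on genes for replication such as Pcna and the Mcm helicase subunits. Later the MuvB complex, with B-MYB and FOXM1, drives genes of mitosis such as Cdk1, Ccnb1 and Plk1, commonly through a promoter element called CHR (TTTGAA) that often lies near CCAAT boxes bound by NF-Y. The colon is a tissue where lymphocytes expand locally, in follicles and among regulatory T cells, whereas neutrophils stop dividing before they leave the bone marrow.

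The promoters of the members carried these letters unevenly. RefSeq promoter windows on GRCm38.p6 were matched by symbol for 34 of the 40 members, all but Tpx2, Mcm4, Aurkb, Ccna2, Gins2 and Kif20a, and the 250 bases before the start were searched on both strands. The letters TTTGAA were found before 9 of 21 G2/M members and 1 of 13 S-phase members, against 18.3% of 27025 genes. CCAAT was found before 19 of 21 G2/M and 9 of 13 S-phase members, against 37.5% of all genes. Any of the E2F letters TTTCGCGC, TTTGGCGC, TTTCCCGC or TTTGCCGC, whose matches may overlap on the opposite strand, was found before 4 of 13 S-phase members and 1 of 21 G2/M members, against 2.16% of all genes. A match is a description of the letters and not a bound site, and a window without a match says nothing on the factor. The windows of 3 S-phase and 4 G2/M members are printed here because these members carry the results that follow. Each is the 120 bases before the start, 5′ to 3′ on the gene's strand, with capitals marking a match to any of these letters in either orientation.
Pcna, chr2:132253181-132253300, minus strand: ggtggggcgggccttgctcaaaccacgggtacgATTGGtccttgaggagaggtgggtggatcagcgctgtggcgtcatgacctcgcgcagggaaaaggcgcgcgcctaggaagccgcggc
Mcm6, chr1:128359706-128359825, minus strand: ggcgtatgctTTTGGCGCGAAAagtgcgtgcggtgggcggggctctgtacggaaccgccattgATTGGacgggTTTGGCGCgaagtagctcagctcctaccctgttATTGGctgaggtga
Pclaf, chr9:65890203-65890322, plus strand: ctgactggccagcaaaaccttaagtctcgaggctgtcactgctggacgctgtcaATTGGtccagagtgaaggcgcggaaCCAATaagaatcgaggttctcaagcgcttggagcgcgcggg
Cdk1, chr10:69352913-69353032, minus strand: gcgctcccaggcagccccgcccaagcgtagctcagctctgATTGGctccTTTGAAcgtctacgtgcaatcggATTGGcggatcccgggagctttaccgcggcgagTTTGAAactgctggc
Top2a, chr11:99024190-99024309, minus strand: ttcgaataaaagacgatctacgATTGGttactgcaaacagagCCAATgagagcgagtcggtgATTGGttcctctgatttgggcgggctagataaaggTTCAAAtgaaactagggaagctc
Ube2c, chr2:164769809-164769928, plus strand: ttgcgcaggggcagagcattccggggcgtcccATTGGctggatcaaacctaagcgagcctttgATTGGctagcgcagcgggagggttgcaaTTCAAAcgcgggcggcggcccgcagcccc
Ckap2l, chr2:129297213-129297332, minus strand: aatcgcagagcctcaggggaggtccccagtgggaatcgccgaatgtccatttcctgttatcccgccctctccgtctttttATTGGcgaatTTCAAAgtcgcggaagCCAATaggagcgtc
Cdk1 held 2 copies of TTTGAA with 2 CCAAT boxes, Top2a and Ube2c 1 copy with 3 and 2 boxes, and Ckap2l 1 copy with 2 boxes. Mcm6 held 3 overlapping or separate E2F matches, and Pcna and Pclaf held only CCAAT letters among those searched.

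The deposited values are whole-number counts of unique molecular identifiers (UMIs), 1 per captured transcript, and sample totals ran from 72509408 to 135516016 UMIs over 8493 to 13730 cells. Levels are given as CPM, a gene's UMIs summed over the cells named and scaled to the total UMIs of those cells. Shares carry 95% exact binomial intervals and levels exact Poisson intervals, both of which cover counting error only. Pairs of samples shared 23 to 49 cell barcodes, at most 0.42% of the smaller sample. Cells were placed in 14 classes by how many of 10 marker genes had a UMI, and 13614 kept cells that also held many markers of another lineage were called mixed and left out of the classes. UMIs of S100a9, a neutrophil gene, were present in 50.6% of B cells and 51.9% of T cells, and in 34.5% to 79.9% of the other classes apart from neutrophils. The part of such UMIs in the mixed call was not tested. Each of the 14 class lists had at least 9 of its 10 markers in 10% of the class, which the gate on these same markers partly sets. CD45 itself (Ptprc) was seen in 95.04% of B, 99.2% of T and 97.2% of neutrophil-class cells. It was seen in 22.7% of fibroblast-class, 20.5% of endothelial-class and 43.7% of epithelial-class cells, which the enrichment carried along.

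Most cells held a few module UMIs, and no gap parted cycling from other cells. Cells with no module UMI were 17.3%, 17.3%, 26.6% and 24.7% in samples 1 to 4. The share at 4 UMIs, just outside the rule, was 6.73% to 9.44%, and at 5 UMIs, just inside it, 4.88% to 7.08%. The signal lay in a small tail, since cells with 20 or more module UMIs were 2.33% to 5.83% of cells and held 40.8% to 60.8% of all module UMIs. The richest cell of each sample carried 960, 807, 688 and 563 of them, and in every sample at least 1 cell had all 40 members. Cells over the threshold were also the deeper ones, with a median of 12305 to 13559 UMIs against 4115 to 5844.5 in the rest. Only 37.4% to 48.3% of them had a UMI of Mki67, the nuclear antigen stained to mark dividing cells, or of Top2a, the topoisomerase that untangles replicated chromosomes. A stricter count, of cells with 5 or more UMIs from at least 4 members that include Mki67 or Top2a, was therefore kept beside the rule.

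**Figure D1:**
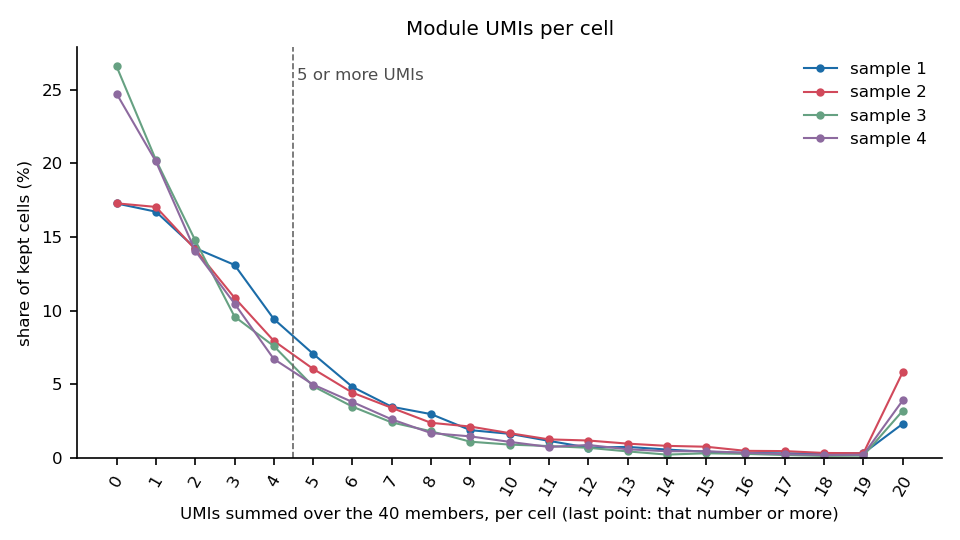
Share of kept cells (y axis, percent) by UMIs summed over the 40 members (x axis), with 1 line per sample and the last point holding 20 or more. All 4 lines fall across the dashed threshold, from 6.73% to 9.44% at 4 UMIs to 4.88% to 7.08% at 5, and all rise at the pooled last point.

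Over all kept cells the cycling share was 29.2% (95% interval 28.3 to 30.1), 32.6% (31.8 to 33.5), 21.2% (20.4 to 21.98) and 23.8% (22.9 to 24.8) in samples 1 to 4. By the strict count it was 9.70%, 14.9%, 8.96% and 9.99%, so sample 2 was highest by either measure. The make-up of the samples differed, since B cells were 24.7% of sample 1 and 2.52% of sample 3. In the 7 classes with at least 50 cells in each sample, mixed cells left out, the share by the rule was 23.9%, 21.1%, 15.4% and 17.2%. Sample 2 was thus below sample 1 before any weighting. Weighted to the same mix of these classes, it was 22.6%, 16.01%, 20.5% and 19.7% in samples 1 to 4, and sample 2 became the lowest. By the strict count the same weighting gave 6.97%, 6.09%, 8.58% and 6.92%. The cells removed for high doublet scores counted as cycling more often, at 44.0% to 69.5%, with a median of 11879.5 to 17300 UMIs.

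Cycling cells came from several classes, in shares that differed between samples. Of cycling cells, 9.54% to 22.6% were T cells, 2.46% to 28.04% B cells, 4.28% to 14.9% monocyte-macrophage cells and 0.23% to 3.02% neutrophils, while 47.2% to 58.2% were in the mixed group, which was 31.8% to 36.9% of all cells. Within T cells the cycling share was 38.2% (34.7 to 41.9), 27.6% (25.7 to 29.6), 48.1% (44.5 to 51.7) and 45.6% (42.3 to 49.0) in samples 1 to 4. Samples 3 and 4 lay above samples 1 and 2 by more than counting error, and the strict count gave the same split at 15.8%, 11.5%, 27.7% and 24.3%. Thinning drew 2000 UMIs from each cell, left out cells with fewer and asked for 2 module UMIs. Thinned, T cells were at 32.4%, 35.0%, 41.1% and 41.6%, with samples 1 and 2 again below. The mix of T subsets was not held equal between samples in these shares. CD8 T cells, given below, did not show the split by the rule, since sample 1 was their highest. Within B cells the share was 33.2%, 26.1%, 20.7% and 24.2%, and the strict count was 7.80%, 8.92%, 5.86% and 3.99%. Thinned, the B cell samples lay together at 33.4% to 36.7%.

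Neutrophils, which are known to leave the bone marrow after their last division, had a low share. It was 1.32%, 1.22%, 2.49% and 2.38%, and 0.33% to 0.41% by the strict count, at a median depth of 2987 to 5805.5 UMIs. Their median over samples, 1.85%, moved with the mixed gate, to 0.52% under a stricter gate, 4.62% under a looser one and 10.8% with mixed cells given to their first class. The median depth of T cells was 4943 to 7319 UMIs and that of B cells 3975 to 5252, ranges that overlap that of neutrophils. Among cells of 4000 to 8000 UMIs, 1.07% to 2.16% of neutrophils, 8.65% to 13.5% of monocyte-macrophage cells, 24.7% to 28.5% of B cells and 22.7% to 33.1% of T cells passed the rule. The share rose with depth within the last named classes. At 2000 to 4000 UMIs monocyte-macrophage cells were at 1.61% to 3.79%, B cells at 5.26% to 6.79% and T cells at 8.06% to 9.55%. At 8000 to 16000 UMIs they were at 30.1% to 34.96%, 69.0% to 73.3% (samples 1 and 2 only) and 59.5% to 72.1%. Neutrophils were at 0% to 1.51% and, in 3 samples, 2.66% to 12.2%. The named classes with at least 50 cells in each sample (B, T, NK, ILC2, monocyte-macrophage and fibroblast) all lay above neutrophils by the rule, the nearest being ILC2, the type 2 innate lymphoid cells, at 6.45% to 18.8%. By the strict count ILC2 lay below neutrophils in samples 1 and 4.

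Foxp3-positive T cells, the regulatory subset, and germinal-centre B cells were among the groups with the highest shares. Of cells in the T class with a Foxp3 UMI, 52.2%, 50.8%, 68.4% and 73.6% were cycling in samples 1 to 4, and 32.6%, 31.7%, 43.1% and 48.7% by the strict count. CD4 cells without Foxp3 were at 39.8%, 29.1%, 48.7% and 41.1%, lower than Foxp3-positive cells in each sample, and CD8 cells were at 40.3%, 24.7%, 37.6% and 32.2%. Gamma-delta T cells, which carry the alternative T cell receptor, lay between, at 38.1% to 55.9%. A Foxp3 UMI is found more readily in a deep cell, and these cells held a median of 7919 to 11182 UMIs. With cells thinned to 2000 UMIs and 2 module UMIs asked for, Foxp3-positive cells were at 35.9%, 43.7%, 53.4% and 58.5%. CD4 cells without Foxp3 were then at 36.8%, 31.9%, 41.8% and 43.2%, so the order held in samples 2 to 4 and not in sample 1. Germinal-centre B cells, which divide as they refine their antibodies, had 50 or more cells only in samples 1 and 2. There 57.4% (47.8 to 66.6) and 74.4% (67.6 to 80.3) passed the rule, against 33.3% and 23.4% of follicular B cells, the resting recirculating kind. Depth was not matched in this contrast. Mki67 stood at 65.2 and 213 CPM in these germinal-centre B cells but only at 6.81 and 6.44 CPM in follicular B cells. A pass by the rule is thus weak evidence of division in follicular B cells.

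**Figure D2:**
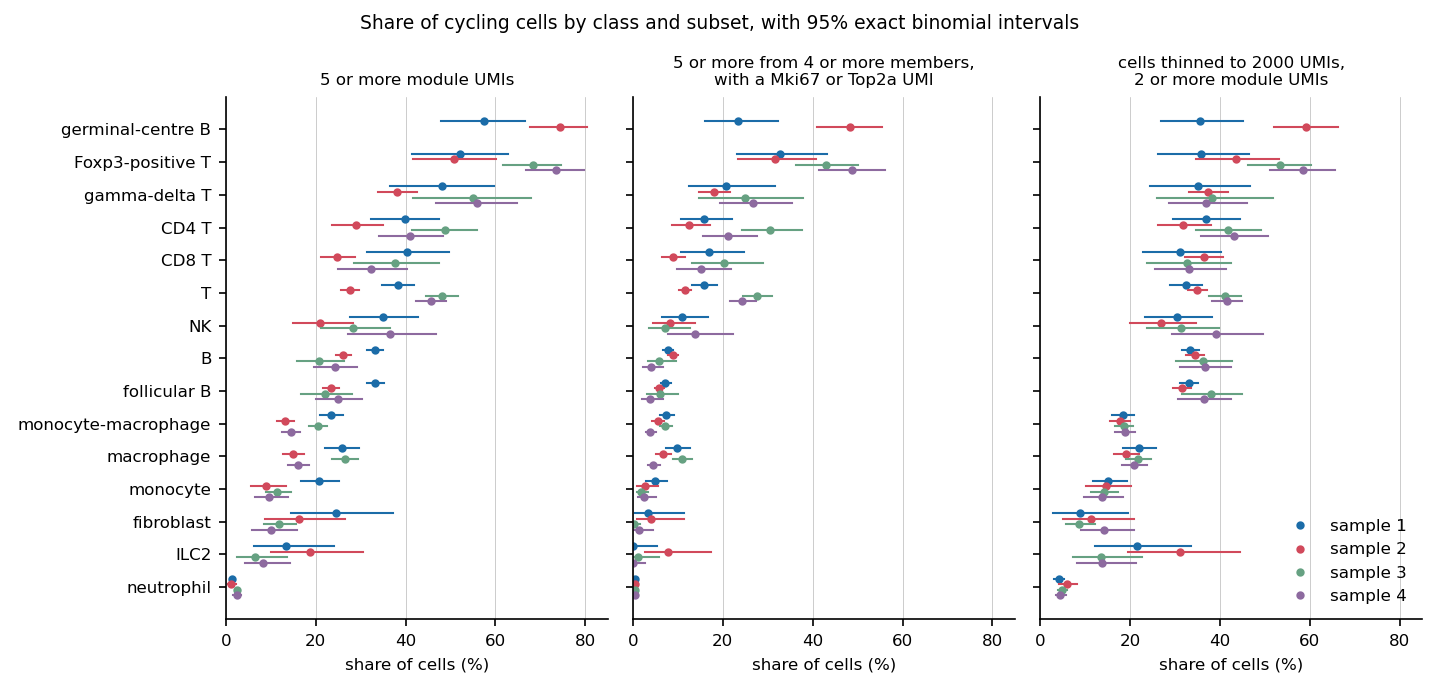
Share of cells counted as cycling (x axis, percent) in each class or subset (y axis), 1 point per sample with its 95% exact binomial interval, for the rule, the strict count and cells thinned to 2000 UMIs. By the rule, Foxp3-positive T cells lie right of the other T subsets in every sample, while thinned cells of sample 1 do not keep that order, and neutrophils lie below 3% by the rule, below 1% by the strict count and at 4.10% to 5.98% after thinning.

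Monocyte-macrophage cells lay below T cells and above neutrophils in each sample, by the rule and by the strict count. Their share was 23.4%, 13.1%, 20.5% and 14.4%, and 7.40%, 5.48%, 7.22% and 3.86% by the strict count. After thinning, a different measure that asks for fewer module UMIs, the 4 samples came together at 17.7% to 18.8%. At full depth medians ran from 5570.5 to 7997.5 UMIs. The part of depth in the spread between samples was not tested. Macrophages passed the rule more often than monocytes in each sample, at 25.7%, 14.98%, 26.4% and 16.1% against 20.7%, 9.01%, 11.5% and 9.64%. By the strict count macrophages were at 4.53% to 10.9% and monocytes at 1.88% to 4.79%. Thinned, macrophages were at 19.1% to 21.96% and monocytes at 13.7% to 15.2%.

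The summed level of the 40 members needs no threshold. In Foxp3-positive T cells it was 2933, 1797, 3737 and 3734 CPM in samples 1 to 4, and in all T cells 1403, 1033, 2533 and 2184 CPM. Germinal-centre B cells stood at 1044 and 2557 CPM in samples 1 and 2, and follicular B cells at 600 to 663 CPM. The ranges of gamma-delta (1028 to 1895 CPM), CD4 (1340 to 2037 CPM) and CD8 T cells (870 to 1460 CPM) overlapped, as did those of NK cells (608 to 1257 CPM) and B cells (640 to 955 CPM). Macrophages (391 to 471 CPM) did not overlap monocytes (314 to 339 CPM), and neutrophils were lowest of these at 129 to 200 CPM. The G2/M members gave 51.0% to 54.3% of module UMIs in T cells, 38.4% to 48.6% in B cells and 27.4% to 32.7% in ILC2. In neutrophils that share was 58.9% to 65.998%, of a sum in which Ckap2l, Cenpa and Kif23 weigh heaviest among the G2/M members. Ckap2l is described below.

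Among the S-phase members, Pclaf, the PCNA-associated clamp factor, followed the cycling cells most closely. Its level in T cells was 76.1, 42.0, 162 and 122 CPM, in macrophages 3.07, 14.6, 2.30 and 1.02 CPM and in neutrophils 0.97, 3.67, 0.78 and 1.14 CPM. The T cell samples did not overlap either myeloid class. Rrm2, the regulated subunit of the enzyme that makes deoxynucleotides, stood at 73.2, 52.4, 121 and 127 CPM in Foxp3-positive T cells and at 0.84 to 3.29 CPM in follicular B cells. Mcm6, a subunit of the replicative helicase, was at 157, 111, 224 and 231 CPM in Foxp3-positive T cells and at 34.5 to 40.2 CPM in follicular B cells. Over the 40 members, 39 were higher in Foxp3-positive T than in follicular B cells in all 4 samples, 35 of them at least 2-fold, with a median difference of 3.36 on the log2(CPM + 1) scale. The share of all genes passing the same fold is not given here. The counts thus do not show how particular this was to the module.

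Cdt1, which loads the helicase at origins in G1, was the member not higher in Foxp3-positive T than in follicular B cells. It was at 32.8, 41.8, 52.6 and 64.4 CPM in Foxp3-positive T cells but at 113, 93.5, 103 and 105 CPM in follicular B cells, with no overlap. Against the whole T class the B class was also higher in every sample, at 114, 91.0, 93.9 and 104 CPM against 29.9, 24.5, 45.3 and 47.6 CPM. Pcna, the sliding clamp, stood at 131, 127, 139 and 115 CPM in follicular B cells and at 102, 104, 130 and 130 CPM in monocyte-macrophage cells, cycling cells included. Neutrophils held 19.2, 31.4, 32.9 and 27.5 CPM of it.

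Among the G2/M members, Mki67 and Top2a were higher in Foxp3-positive T and germinal-centre B cells than in follicular B cells. Both count towards the cycling share, and the strict count asks for Mki67 or Top2a. A match between their levels and that share is thus partly set by the count. Mki67 stood at 231, 121, 294 and 266 CPM in Foxp3-positive T cells, at 65.2 and 213 CPM in the germinal-centre B cells of samples 1 and 2, and at 4.20 to 7.90 CPM in follicular B cells. Top2a stood at 319, 170, 383 and 397 CPM in Foxp3-positive T cells and at 24.4 to 36.9 CPM in follicular B cells. The mitotic cyclin Ccnb1 was at 26.98, 9.01, 33.8 and 32.9 CPM in Foxp3-positive T cells and had no UMI in monocytes of any sample, while Cdk1, its partner kinase, was at 49.1, 24.6, 66.4 and 56.2 CPM in Foxp3-positive T cells and at 0 to 1.41 CPM in monocytes. Ube2c, which helps mark mitotic cyclins for destruction, gave 158, 92.5, 122 and 147 CPM against 1.97 to 4.03 CPM in follicular B cells.

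**Figure D3:**
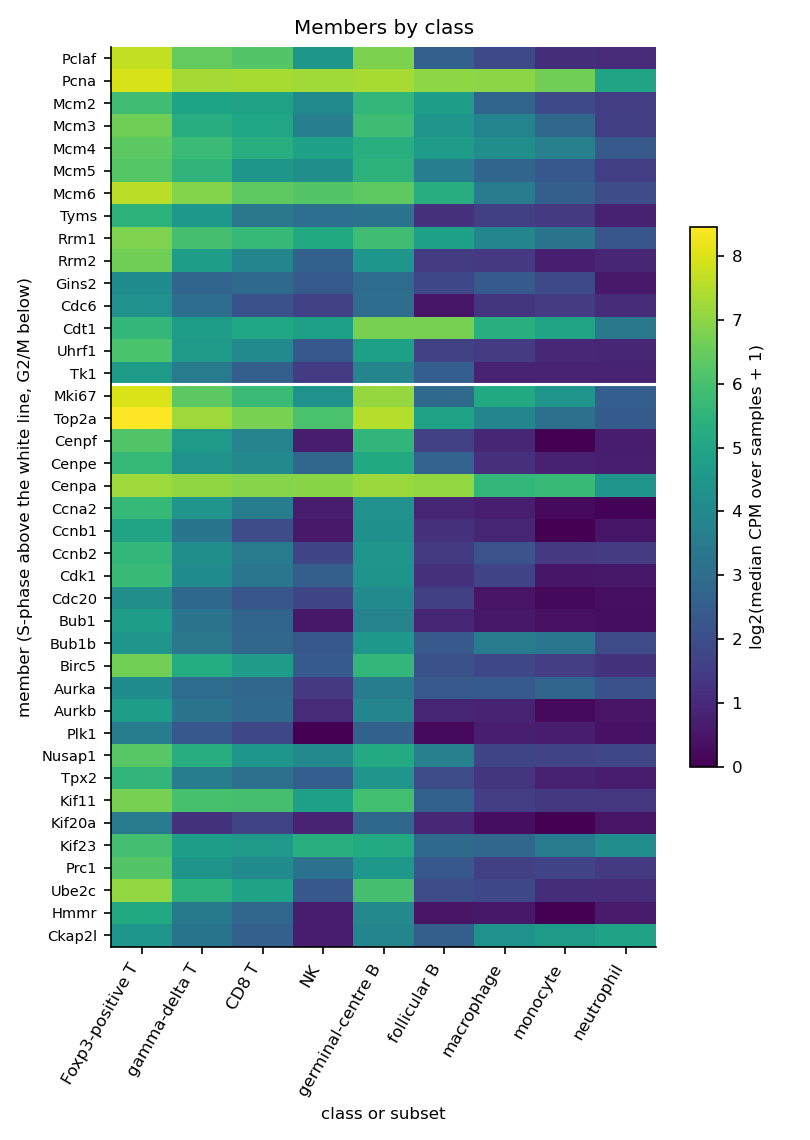
Level of each member (y axis, S-phase members above the white line) in 9 classes or subsets (x axis), as log2 of the median CPM over samples plus 1. Foxp3-positive T and germinal-centre B columns are bright for nearly all members, while Pcna, Cdt1 and Cenpa stay bright in follicular B cells and Ckap2l in neutrophils.

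The members were far from equal as marks of a cycling cell. For each member, the share of its UMIs was taken that fell in cells with 10 or more UMIs of the other 39 members, which, as the median over members in each sample, were 7.36% to 14.1% of cells and held 23.5% to 39.6% of all UMIs. Since these cells were chosen without the member itself, the share is a description of how a gene follows the rest. Ccna2, the cyclin of S phase and G2, had 96.4%, 94.9%, 96.5% and 96.9% of its UMIs there in samples 1 to 4, and Pclaf 96.0%, 96.5%, 97.1% and 96.3%. Cenpf, a kinetochore protein, was at 91.0% to 96.5% and Hmmr, a spindle protein, at 93.0% to 95.8%. The median share over samples was above 80% for 17 of 25 G2/M members and 3 of 15 S-phase members.

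At the other end the share came nearer to that of all UMIs in the same cells. For Pcna, Cenpa and Cdt1 it still lay above that in each sample, and for Ckap2l below it in samples 3 and 4. Pcna had 27.8%, 44.2%, 36.1% and 38.8% of its UMIs in such cells, Cenpa, the histone variant of centromeres, 24.3%, 38.99%, 37.1% and 39.8%, Cdt1 25.2%, 42.6%, 29.5% and 33.8%, and Ckap2l 23.7%, 52.5%, 19.02% and 26%. Aurka, Bub1b, Mcm4 and Kif23 came next, with medians of 49.3%, 51.1%, 53.1% and 55.1%. B cells with no UMI of the other 39 members held 79.4 to 108 CPM of Cdt1, 95.6 to 172 CPM of Cenpa and 112 to 132 CPM of Pcna. T cells of that kind held 109 to 121 CPM of Pcna and 118 to 167 CPM of Cenpa. These 3 genes therefore put UMIs into the sum in cells that had nothing else of the module.

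**Figure D4:**
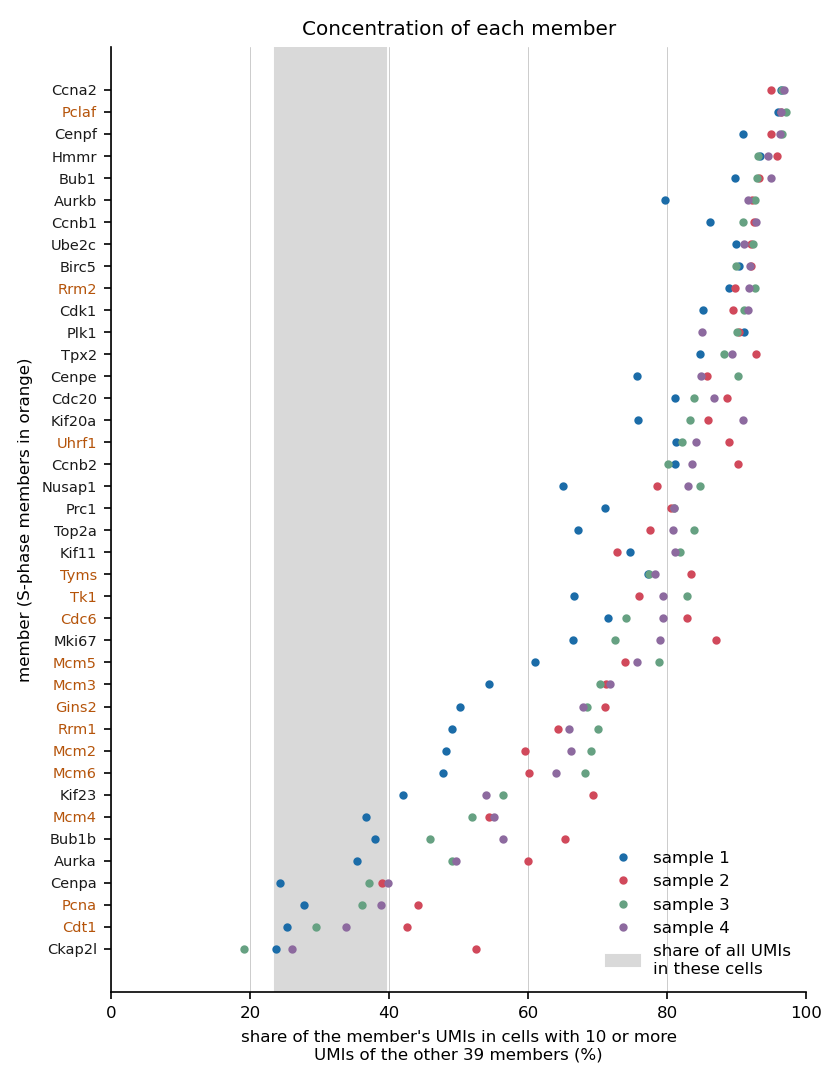
Share of each member's UMIs (x axis, percent) in cells with 10 or more UMIs of the other 39 members, with members ordered by their median (y axis), 1 point per sample, and the grey band giving the share of all UMIs in these cells, 23.5% to 39.6%. Ccna2 and Pclaf lie near 96%, while Cenpa, Pcna, Cdt1 and Ckap2l fall in or beside the band, apart from sample 2 for Ckap2l. The band runs over all samples, and within each sample Pcna, Cenpa and Cdt1 lie above their own share of all UMIs.

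Mki67, like most members, had a larger part of its UMIs in cells rich in the other members in T cells than in monocyte-macrophage cells. In T cells 92.5%, 85.9%, 95.6% and 95.9% of its UMIs lay in cells with 10 or more UMIs of the other members, which held 18.7% to 50% of T cell UMIs. In monocyte-macrophage cells it was 1.55%, 31.8%, 8.04% and 8.44%, where such cells held 3.41% to 5.61% of UMIs. The median share over samples was above 80% in T cells for 21 of 25 G2/M and 8 of 15 S-phase members. It was under 50% for 24 of 25 and 15 of 15 in monocyte-macrophage cells. As the median over members, such cells held 18.8% to 50.1% of all UMIs in T cells and 3.95% to 7.98% in monocyte-macrophage cells. The 2 classes thus start from unlike shares, and these counts do not show how much closer the link was in T cells. The Mki67 level there was 29.3, 25.7, 38.2 and 28.9 CPM, above neutrophils at 3.56 to 6.94 CPM, and cells of the class with no other module UMI still held 16.3 to 27.2 CPM. Of the 40 members, 21 were higher in monocyte-macrophage cells than in neutrophils in all 4 samples, and the 5 that were at least 2-fold higher in each were Mki67, Pcna, Mcm3, Mcm4 and Bub1b. Ccna2, Ccnb1, Hmmr, Kif20a and Pclaf were not higher in each sample. Set against T cells, 37 members were lower in monocyte-macrophage cells in all 4 samples, 27 of them at least 2-fold. For neither comparison is the share of all genes given here, so the counts do not show how particular this was to the module.

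Ckap2l, a protein of the spindle, ran against the module. It was at 27.8, 30.6, 24.3 and 28.5 CPM in neutrophils and at 5.61, 5.58, 13.5 and 12.2 CPM in T cells, the only member lower in T cells than in neutrophils in all 4 samples. On GRCm38 it lies at chr2:129268210-129297212 on the minus strand, and Il1a, the cytokine gene for interleukin 1 alpha, lies 2397 bases away on the same strand at chr2:129299610-129309972, ahead of it in the direction of transcription. In monocyte-macrophage cells without an Il1a UMI Ckap2l stood at 5.08, 6.59, 6.42 and 11.8 CPM in samples 1 to 4. In those with 5 or more Il1a UMIs it was at 38.5 (25.6 to 55.7), 92.6 (79.2 to 108) and 142 (122 to 165) CPM in samples 1, 3 and 4, and sample 2 had under 50 such cells. Neutrophils with 5 or more Il1a UMIs were at 71.3, 85.5 and 72.4 CPM in the same samples against 19.5, 17.4 and 20.1 CPM without. In both classes no interval of one group met that of the other.

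The median over the module did not rise with Il1a in this way. The log2 ratio of Ckap2l was 2.70 to 3.66 in monocyte-macrophage cells and 1.80 to 2.23 in neutrophils, whereas the median over the 40 members was -0.19 and -0.42. Mki67 was the other member above 2-fold in all 3 samples of monocyte-macrophage cells, with 59.2, 71.5 and 43.5 CPM against 23.2, 24.1 and 19.8 CPM, and Top2a in the same cells was at 8.26, 7.58 and 15.6 CPM against 13.6, 7.29 and 11.8 CPM. T cells had 90.9%, 78.3%, 97.2% and 91.9% of their Ckap2l UMIs in cells rich in the other members. How reads between Ckap2l and Il1a were assigned in the deposited counts was not tested.

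**Figure D5:**
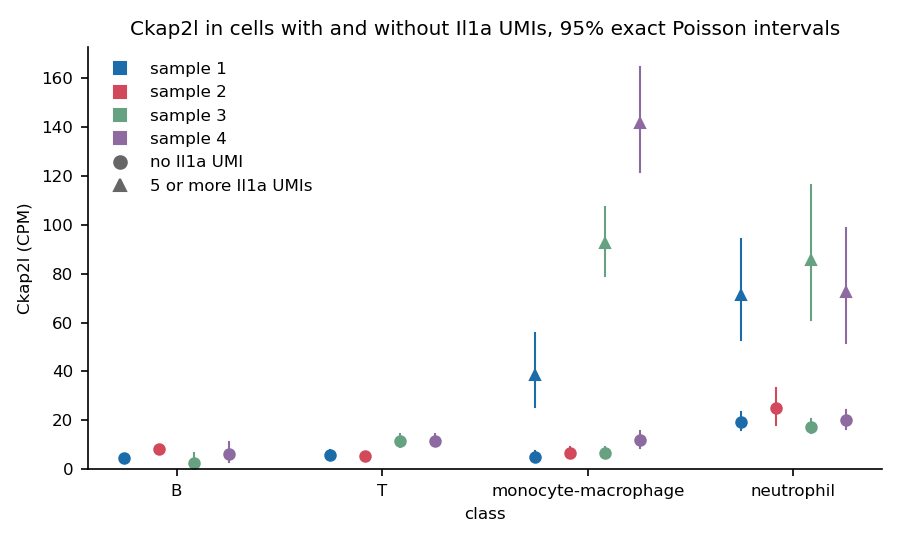
Ckap2l level (y axis, CPM, with 95% exact Poisson intervals) in 4 classes (x axis), with circles for cells without an Il1a UMI and triangles for cells with 5 or more, shown where at least 50 cells were present. Triangles reach 38.5 to 142 CPM in monocyte-macrophage cells and 71.3 to 85.5 CPM in neutrophils, and circles stay at or below 24.9 CPM.

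S-phase and G2/M members rose in the same cells. Cells without S-phase UMIs held 125 to 177 CPM of G2/M members and cells with 10 or more S-phase UMIs 1141 to 1715 CPM, while the classes of 1 to 2 and 3 to 9 S-phase UMIs stood at 148 to 209 and 183 to 231 CPM. Depth was not matched, with medians of 3273 to 5177 UMIs in cells without S-phase UMIs. In cells with 10 or more it was 25069.5 to 28142 UMIs. Of strict cycling cells, 8.13% to 11.3% had under 25% of their module UMIs from G2/M members, 10.7% to 11.7% had over 75%, and the others, 77.2% to 80.4%, lay between. The strict count asks for Mki67 or Top2a, both G2/M members, and so leaves out cells with S-phase members alone. The shares among strict cells are partly set by that choice. By the rule alone 21.6% to 26.2% of cycling cells were led by S-phase members, and in B cells 27.1% to 43.4%. With a median of 4 or 5 members seen in a cycling cell, a split by phase rests on few UMIs per cell.

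Genes outside the module that were at least 2-fold higher in cycling than in other cells of the same classes in all 4 samples numbered 15 of 7263 tested (0.207%), and 0 of 7263 (0%) were lower by that much. The ratio was taken within each sample on log2(CPM + 1), with the other cells weighted to the classes of the cycling cells and genes kept at a mean of 10 CPM in each sample. Of those 15, 11 belonged to lists of cell cycle genes. The lists were chosen with earlier results of these data known, so the overlap is a description and not independent support. Depth was not matched here, and with depth matched 0 of 7 other mitosis and 0 of 10 other replication genes passed. Other mitosis genes gave 5 of 14 tested, with a list median of 1.503 on the log2 scale against 0.02 over all tested genes. They were Cks1b, the small CDK-binding protein, Smc2 of condensin, Ect2 and Racgap1, which place the cleavage furrow, and Incenp of the Aurora B complex. Cks1b stood at 18.2, 29.8, 39.3 and 33.4 CPM in cycling cells of samples 1 to 4 and 3.20, 3.81, 4.40 and 3.40 CPM in the others. Pttg1, securin, was the member of that list below 0 in each sample, at -0.18 to -0.06.

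Other replication genes gave 4 of 13 tested with a median of 1.40. They were Clspn, a checkpoint adaptor, Dut, which removes dUTP, Lig1, the ligase that seals replicated strands, and Hells, a chromatin remodeller. Dut stood at 42.4, 72.8, 92.5 and 75.5 CPM in cycling cells and 15.5, 21.997, 13.9 and 16.99 CPM in the others. Chromatin and tubulin genes gave 2 of 10, the linker histone Hist1h1b and Stmn1, a protein that takes microtubules apart, with a median of 1.14. Stmn1 stood at 56.7, 125, 119 and 112 CPM against 12.5, 15.3, 8.50 and 8.17 CPM in the others, and the groups did not overlap. The 4 genes outside every list were Diaph3, a formin that builds actin filaments, Gmnn, geminin, which holds Cdt1 inactive, Dctpp1, which clears odd deoxynucleotides, and Lgals1, galectin-1. Lgals1 stood at 188, 164, 438 and 355 CPM in cycling cells against 81.9, 77.5, 158 and 155 CPM.

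The upstream regulators that were tested did not pass that fold. None of 4 tested G1 cyclins and CDKs did, with a median of 0.22, nor any of 3 CDK inhibitors (median 0.09), 9 E2F, pocket protein and MuvB genes (median 0.07) or 7 growth and polyamine genes (median 0.26). Of all tested genes outside the module, 15 of 7263 (0.207%) passed. These list counts therefore do not set the regulators apart from other genes. Ccnd3, a cyclin D, was lower in cycling cells in every sample, at 137, 129, 76.6 and 100.3 CPM against 155, 144, 118 and 157 CPM, a log2 ratio of -0.64 to -0.16. Cdkn1b, the inhibitor p27, was lower by less, at -0.41 to -0.06. Odc1, the first enzyme of polyamine synthesis and a gene of interest in the study, was at 0.15 to 0.62 and Myc at -0.17 to 0.07. E2f1 and Foxm1 fell under the minimum level and were not tested. Their ratios were 0.47 to 1.84 and 1.16 to 2.23, from 4.67 to 13.9 CPM and 4.93 to 11.3 CPM in cycling cells. Foxm1, and likewise the untested E2f7 and E2f8 with smallest ratios of 1.56 and 1.03, was thus above 2-fold in all 4 samples.

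These counts depended on how cycling cells were set apart. Cycling cells were deeper than the others, and with the others also weighted to depth 1 of 7100 genes (0.0141%) was at least 2-fold higher, namely Stmn1 at 1.15 to 3.25, and 0 of 7100 (0%) lower. With the strict count 61 of 7312 (0.834%) were higher and 1 of 7312 (0.0137%) lower. There 14 of 19 other mitosis genes, 9 of 15 other replication genes and 5 of 10 chromatin and tubulin genes passed, with medians of 2.71, 1.90 and 1.72. Without sample 1, 38 genes were higher in the other 3 samples, and without any other sample 15. Lgals1 fell to a smallest ratio of 0.15 when depth was matched.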

How the data were processed

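Single-cell libraries of 4 samples were analysed from the UMI count matrices deposited by the authors, raw counts per gene and cell, with no filter or scaling added after Cell Ranger. The submitters' processing notes name Cell Ranger 5.0.0, STAR, Seurat and mm10, and the matrix headers Cell Ranger 7.0.1. Cells with 200 or more genes and less than 20% mitochondrial UMIs were kept, and the highest Scrublet scores (scanpy 1.11.5) were removed at 0.8% of cells per 1000 cells. A class needed 3 of its 10 markers, and a cell in which another lineage had over 0.5 times as many was mixed. Genes outside the module were compared between cycling and other cells within each sample, in classes with 20 or more cycling cells, on log2(CPM + 1), where called means 2-fold in the same direction in all 4 samples. The labels put no sample in a group, so no test between samples was made, and cells are not replicates. The members and gene lists were chosen with earlier results of these data known. The text names members, genes of the lists, and genes outside them by the size of their smallest ratio, and Ckap2l was set against Il1a after its values were seen. The class gate, the cycling call and the comparison of cycling with other cells were tested on simulated data. There cycling and other cells were set far apart in module level, and no mixed cells were made. That test thus says nothing on cells near the threshold or on mixed cells. Columns of unknown samples numbered 0. Alternatives concerned the threshold, depth, filters, gate and weighting. Computation used Python 3.11.15, numpy 2.4.6, scipy 1.17.1 and pandas 2.3.3.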

Additional observations from a re-analysis of the deposited data

How the results depend on the processing

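Values are medians over the 4 samples, and the cause of each shift was not tested. By the rule, 26.5% of all cells, 41.9% of T, 25.2% of B, 17.4% of monocyte-macrophage cells and 1.85% of neutrophils were cycling. At 3 module UMIs these were, in that order, 46.3%, 67.0%, 50.8%, 40.7% and 7.51%, and at 10 UMIs 9.08%, 16.8%, 6.47%, 2.49% and 0.16%. The strict count gave 9.84%, 20.04%, 6.83%, 6.35% and 0.38%. With 3 UMIs that were also 0.1% of a cell's total, the first 4 were 8.82%, 21.8%, 15.5% and 4.66%. G2/M members alone at 3 UMIs gave 19.9%, 32.2%, 15.1%, 13.3% and 3.85%, and S-phase members alone 29.1% of all, 32.2% of B and 21.9% of monocyte-macrophage cells. Thinning gave 22.1% of all, 38.1% of T, 35.3% of B and 4.72% of neutrophils, and keeping high doublet scores 28.7% of all. A stricter mixed gate gave 34.7% of T, 18.9% of B, 12.5% of monocyte-macrophage cells and 0.52% of neutrophils. A looser gate, added after seeing the data, gave 4.62% of neutrophils, and mixed cells given to their first class, added likewise, 49.1% of T, 34.3% of B and 10.8% of neutrophils. As medians, T cells stayed above B cells, B above monocyte-macrophage cells and these above neutrophils in each of those settings that gave all 4 values here. The order did not hold within every sample. By the strict count B cells lay below monocyte-macrophage cells in sample 3, and thinned T cells lay below thinned B cells in sample 1. Leaving out 1 sample gave 23.8% to 29.2% of all, 38.2% to 45.6% of T and 14.4% to 20.5% of monocyte-macrophage cells.

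Of genes outside the module, 15 were higher and 0 lower. The higher count was 1 at a minimum of 50 CPM, 66 with no minimum, 31 with 40 lower without weighting, 1 weighted to class and depth, and 61 with 1 lower for strict cycling cells, these last 2 settings added after seeing the data. Leaving out 1 sample gave 15 to 38 higher. A pseudocount of 5 CPM gave 10 higher and 0 lower. A minimum of 500 genes, under 10% mitochondrial UMIs and 4 markers for a class moved no share by as much as its counting error. No paired analysis was possible because the labels put no sample in a group. At a median of 5633.5 to 7084 UMIs per cell, a member without a UMI in a cell was not detected there, which does not show that it was absent.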
